A study of Mus musculus with 2 samples.

Results

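The cells described here are the Clu-positive cells of mouse small-intestinal organoids grown in Matrigel, a basement-membrane gel. They were chosen by their measured Clu count: of the Matrigel cells with at most 30% mitochondrial counts, those with a Clu count above 0. The rule found 201 of 1599 such Matrigel cells (12.6%, exact binomial interval 10.98% to 14.3%), out of 2090 cells in all. The other 1398 Matrigel cells had no Clu count and are called Clu-zero cells below. Clu levels themselves are a description and carry no test, because they defined the groups.

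The organoids came from epithelium of the proximal small intestine of C57BL/6 wild-type mice. The Matrigel cultures received ENR medium, which holds the growth factors EGF, Noggin and R-spondin1. A second set of organoids was grown in type I collagen with the same medium plus 100 ng/mL Wnt3a, 10 mM nicotinamide and 1% bovine serum albumin (ENRW), so that gel and medium cannot be told apart between the cultures. On day 4 the Matrigel organoids were released with Cell Recovery Solution and the collagen organoids with collagenase at 0.5 mg/mL, and both were made into single cells with TrypLE. The cells were stained with biotinylated anti-EpCAM antibody and a barcoded streptavidin hashtag per culture, pooled, and read as 1 cDNA library. The labels name 1 hashtag for each culture and no replicates, and cells of a culture are not replicates. No p-value was therefore computed, and every interval below is an exact 95% interval that covers counting error only.

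Clu encodes clusterin, a secreted chaperone. In the mouse intestine it marks rare revival stem cells that appear after injury, and it belongs to a fetal-like regenerative program that also includes Ly6a (the surface antigen Sca-1), Anxa1 (annexin A1) and Msln (mesothelin). That program is known to be driven in part by the co-activators YAP and TAZ, which bind DNA through TEAD factors and act on targets such as Ccn1 and Ccn2. Homeostatic crypts are instead maintained by Lgr5 stem cells, which carry Olfm4 and sit between Paneth cells.

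Clu counts in the 201 cells ran from 10 to 97, with a median of 18. In CPM, counts per 1000000 counts of the cell, they ran from 30.0 to 889 with a median of 104. At the edge of the rule, 22 cells held exactly 10 counts and 51 held at most 12, while every cell just outside held 0. No cell of the table had a Clu count of 1 to 9, so a Clu-zero cell may hold a low count that the deposited table does not show. Among the collagen cells, 225 of 336 (67.0%, interval 61.7% to 72.0%) carried Clu, with counts of 10 to 2030 and a median of 33. A count of at least 50 was found in 8 Clu-positive Matrigel cells (3.98%), against 72 Clu-positive collagen cells (32%).

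**Figure D1:**
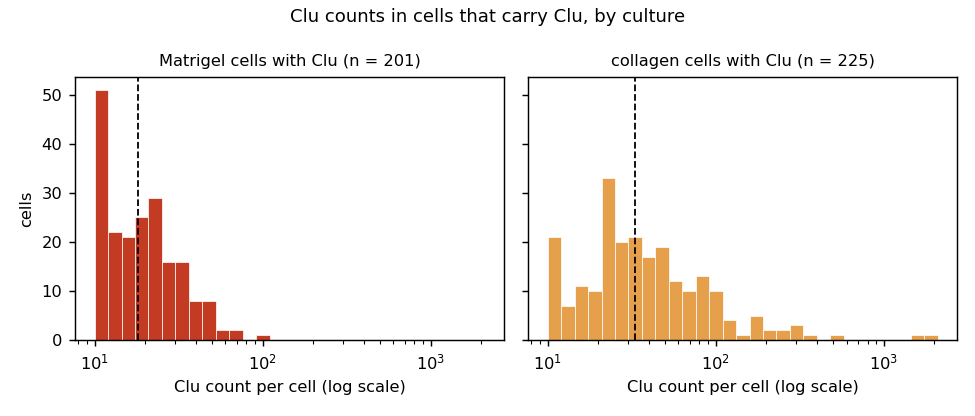
Histograms of the Clu count per cell (horizontal, log scale) against the number of cells (vertical) in Clu-positive Matrigel cells on the left and Clu-positive collagen cells on the right, with dashed lines at the medians of 18 and 33. Both start at 10 counts, and the Matrigel cells end at 97 while the collagen cells reach 2030.

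The Clu-positive cells were neither deeper nor shallower than the rest of their culture. Their median depth was 175597 counts, against 180070 in Clu-zero cells, with a median of 9502 and 9441 detected genes. Mitochondrial counts made up a median of 4.54% in Clu-positive and 4.64% in Clu-zero cells. In 4 equal groups of Matrigel cells ordered by depth, shallowest first, Clu was present in 10.3%, 16.8%, 11.5% and 11.8% of cells. Epcam, the epithelial adhesion molecule against which cells were stained, was counted in all 201 Clu-positive cells, at 1071 CPM against 1076 CPM in Clu-zero cells. Markers of other tissues were low, with the 12 immune genes summing to 1.69 CPM in Clu-positive and 2.05 CPM in Clu-zero cells, the 10 fibroblast genes to 2.09 and 6.88 CPM, and the 8 endothelial genes to 12.04 and 11.03 CPM.

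Of the genes given as marks of these cells, Anxa1 was common and Ly6a rare. Anxa1 was counted in 66 of the 201 Clu-positive cells (32.8%), against 17.7% of Clu-zero cells. Ly6a was counted in 13 Clu-positive cells (6.47%), against 2.86% of Clu-zero cells. Both were counted in 7 Clu-positive cells (3.48%, interval 1.41% to 7.04%), against 17 Clu-zero cells (1.22%, interval 0.710% to 1.94%) and, in the collagen culture, 104 Clu-positive cells (46.2%). The cells are therefore called by their Clu count here and not by the name of a cell type.

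Across genes the Clu-positive cells were close to the rest of the Matrigel culture. Each group was represented by the sum of its cells, scaled to 1000000 counts, and ratios were taken on the log2(CPM + 1) scale, where differences of weakly expressed genes come out too small. In summed counts, fewer cells of a kind and less RNA per cell cannot be told apart. Of the 10236 genes at 5 CPM or more in either group, 45 (0.44%) were higher in Clu-positive cells by 2-fold or more, and 34 (0.332%) were lower by as much. Of these, 23 of the 45 reached 5 CPM in Clu-positive cells alone, and 27 of the 34 in Clu-zero cells alone. The median log2 ratio was 0.01, and 97.7% of the genes lay within 1.5-fold. Of the 45 higher genes, 17 were Paneth defensin genes, whose sums rested on few cells, as described below. Among the 8358 genes counted in at least 50% of the cells of either group, 5 were past 2-fold in each direction.

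The fetal and regenerative list held 30 genes besides Clu, of which 29 had a row in the table and 19 reached 5 CPM. Of these 19, 5 were at least 2-fold higher in Clu-positive cells and none was 2-fold lower, where 0.44% of all genes were higher. However, 4 of the 19 reached 5 CPM in Clu-positive cells alone, so that their direction was fixed by the filter, and Ly6a, Anxa1 and Anxa10 were among them. Of the 15 genes that reached 5 CPM in both groups, Lgals3 and Tm4sf4 were at least 2-fold higher, as were 22 of all 9829 such genes. The median log2 ratio was 0.68 over the 19 genes, 0.60 over these 15 and 0.54 over the 29, beside 0.01 over all genes. The list was chosen with earlier results of these data known, so its direction is no independent evidence. Its members fell into genes carried by a handful of cells and genes whose differences were spread over more cells.

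The first kind included Ly6a, Lgals3, Anxa10, Msln and S100a6. Ly6a was at 13.8 CPM in Clu-positive cells (interval 12.6 to 15.0) and 3.08 CPM in Clu-zero cells (2.86 to 3.30), a log2 ratio of 1.86. Per cell it ran from 0 to 1395 CPM with a median of 0 in Clu-positive cells, and from 0 to 772 CPM with a median of 0 in Clu-zero cells. The ranges overlapped except for 1 Clu-positive cell above the highest Clu-zero cell, and 3 of the 201 cells held 74.5% of the Ly6a counts. The table lacks Ly6a values under 6, and with such missing values set to the smallest kept one the log2 ratio was 0.29, with Lgals3 at 0.63 and Tm4sf4 at 0.36, which lack low values as well.

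Lgals3, which encodes the lectin galectin-3, was at 42.2 CPM in Clu-positive cells and 16.7 CPM in Clu-zero cells, a log2 ratio of 1.28. It was however counted in fewer Clu-positive cells (15.4%) than Clu-zero cells (17.9%), and 3 cells held 78.3% of its counts. Anxa10, another annexin, showed the same form: a log2 ratio of 1.38 with a count in 11.9% of Clu-positive and 14.3% of Clu-zero cells. Msln stayed under 5 CPM, at 2.82 CPM in Clu-positive and 0.55 CPM in Clu-zero cells, and 1 cell held 88.6% of its counts. S100a6, a calcium-binding protein, was at 293 CPM in Clu-positive and 151 CPM in Clu-zero cells, yet its median per cell was 52.0 CPM in Clu-positive and 54.0 CPM in Clu-zero cells.

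A single Clu-positive cell accounted for much of these sums. It held 33 counts of Clu (193 CPM) together with Ly6a at 1395 CPM, Msln at 543 CPM, S100a6 at 14102 CPM, Lgals3 at 4751 CPM and Tm4sf4, a tetraspanin-like membrane protein, at 2200 CPM. The crypt genes were near 0 in it, with no count of Olfm4 or Axin2 and 11.7 CPM of Lgr5. It had 171326 counts, 8018 detected genes and 29 collagen hashtags against 1556 Matrigel hashtags (1.83% collagen). Without this cell, 2 of the 19 genes were at least 2-fold higher, Ly6a at a log2 ratio of 1.04 and Anxa1 at 1.26, and the median was 0.48. Both are genes whose direction the filter fixed, and 40 of all 10236 genes were at least 2-fold higher without this cell. Lgals3 was then at 0.27, S100a6 at 0.60, Tm4sf4 at 0.32 and Msln at -0.23.

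The summed level of the 29 genes in each cell put this cell far above the others. The sum ran from 524 to 42831 CPM with a median of 1176 CPM in Clu-positive Matrigel cells, and from 68.2 to 25669 CPM with a median of 976 CPM in Clu-zero cells. The next 3 Clu-positive cells were at 11757, 9448 and 4398 CPM. In the Clu-positive collagen cells the median was 12379 CPM and the lowest cell 1110 CPM. That median was reached by 1 Clu-positive and 1 Clu-zero Matrigel cell, and the lower quartile of the Clu-positive collagen cells (6994 CPM) was passed by 3 Clu-positive and 2 Clu-zero Matrigel cells. Without the 3 highest cells, Anxa1, whose direction the filter fixed, was the single listed gene at least 2-fold higher. The median log2 ratio over the 19 genes was then 0.39, and Lgals3 (-0.77), Anxa10 (-0.82) and Tm4sf4 (-0.40) were lower in Clu-positive cells.

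**Figure D2:**
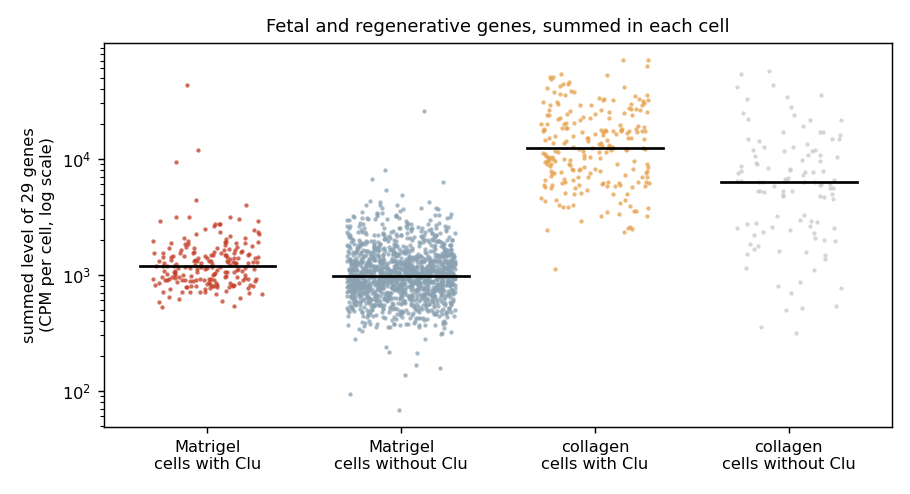
Summed level of the 29 fetal and regenerative genes (CPM per cell, log scale), 1 point per cell with a line at the group median. Clu-positive Matrigel cells (median 1176) overlap Clu-zero Matrigel cells (median 976) apart from 1 cell at 42831, and lie below most Clu-positive collagen cells (median 12379), shown with the Clu-zero collagen cells.

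The number of genes counted in a cell was compared for 8 genes of the list, most of them of the first kind. Of Ly6a, Anxa1, Msln, Lgals3, S100a6, Anxa10, Il1rn and Tm4sf4, a median of 1 was counted in Clu-positive cells and also in Clu-zero cells. Low values of Ly6a, Lgals3, S100a6 and Tm4sf4 are missing. At least 5 of the 8 were counted in 4 Clu-positive Matrigel cells (1.99%), against 17 Clu-zero cells (1.22%). In the collagen culture the same held for 162 Clu-positive cells (72%). The 8 genes do not stand for the whole list, in which 17 of the 19 measured genes were counted in a larger share of Clu-positive than of Clu-zero Matrigel cells.

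The second kind depended less on a few cells. Anxa1 was at 11.7 CPM in Clu-positive cells (interval 10.6 to 12.8) and 3.73 CPM in Clu-zero cells (3.49 to 3.97). Its values per cell ran up to 315 CPM in Clu-positive and 753 CPM in Clu-zero cells, with a median of 0 in both. At an equal depth of 91971 counts per cell, reached by thinning all but 9 Clu-positive and 152 Clu-zero cells that were too shallow, Anxa1 was counted in 28.1% of Clu-positive cells (interval 21.9% to 35.1%) and 12.6% of Clu-zero cells (10.8% to 14.6%). The intervals of these shares did not overlap, but Anxa1 reached 5 CPM in Clu-positive cells alone, so the filter fixed its direction. With the highest 5% of cells of both groups left out, its log2 ratio was 1.61.

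Cldn4, a tight-junction claudin, was at 61.5 CPM in Clu-positive and 34.3 CPM in Clu-zero cells, and was counted after thinning in 82.8% and 62.6% of them. Anxa3, an annexin, was at 38.2 CPM in Clu-positive and 20.8 CPM in Clu-zero cells. Tnfrsf12a, the receptor of the cytokine TWEAK, was at 150 CPM in Clu-positive and 93.3 CPM in Clu-zero cells, with medians of 121 and 72.2 CPM per cell. These 3 genes stayed within 2-fold, and their log2 ratios of 0.82, 0.84 and 0.68 moved to 0.91, 0.77 and 0.70 with the highest 5% of cells left out. Plaur, the urokinase receptor, was at 43.7 CPM in Clu-positive and 26.8 CPM in Clu-zero cells. Anxa2 and the EGF-family ligand Areg were nearly equal: Anxa2 was at 186 CPM in Clu-positive and 185 CPM in Clu-zero cells, and Areg at 44.5 and 44.0 CPM.

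**Figure D3:**
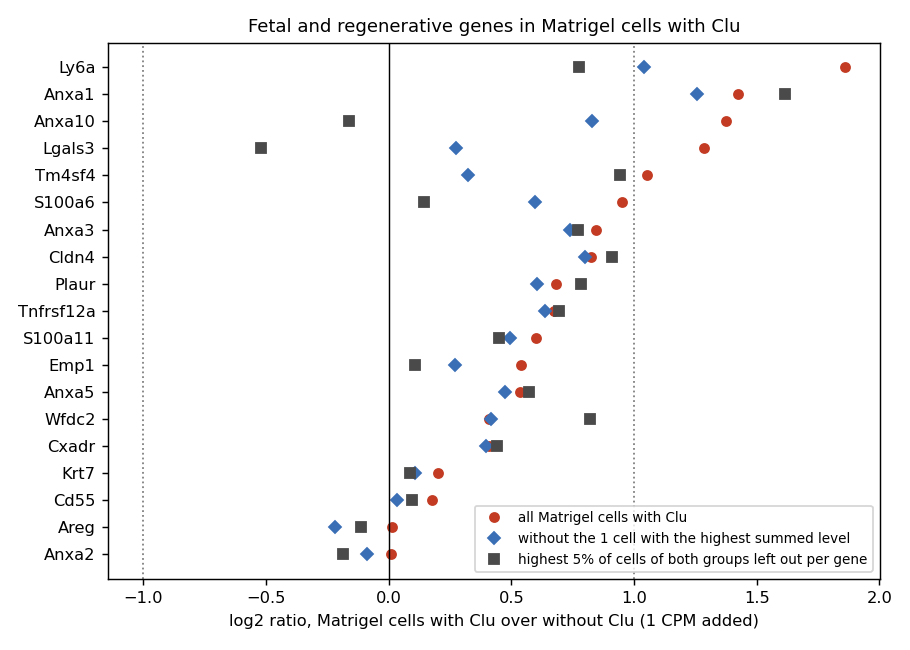
Log2 ratio of Clu-positive over Clu-zero Matrigel cells (horizontal, 1 CPM added) for the 19 fetal and regenerative genes that reached 5 CPM: circles for all cells, diamonds without the 1 cell with the highest summed level, squares with the highest 5% of cells of both groups left out for each gene. Dotted lines mark 2-fold. The 3 marks lie close together for Anxa3, Cldn4, Plaur and Tnfrsf12a and far apart for Ly6a, Anxa10 and Lgals3.

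The same wider pattern was found in the list of YAP and TAZ targets. Of its 21 genes, all in the table, 13 reached 5 CPM, 4 of them (Ccn2 included) in Clu-positive cells alone, and the median log2 ratio over the 21 was 0.30. Over the 9 genes that reached 5 CPM in both groups the median was 0.50, beside 0.01 over all such genes. Of these 9, 1 gene, Edn1, was at least 2-fold higher, as were 22 of all 9829 such genes. Over the 13 genes, of which 4 had their direction fixed by the filter, the median was 0.68 in all cells. It was 0.65 without the 3 cells with the highest regenerative sum. With the highest 5% of cells left out it was 0.78.

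Edn1, the peptide hormone endothelin-1, was at 387 CPM in Clu-positive cells (interval 381 to 394) and 158 CPM in Clu-zero cells (156 to 159), a log2 ratio of 1.29. Per cell it ran from 0 to 2749 CPM with a median of 206 CPM in Clu-positive cells, and from 0 to 2599 CPM with a median of 48.7 CPM in Clu-zero cells. The ranges overlapped, but the middle of the distribution was shifted, and 3 cells held 8.42% of its counts in Clu-positive cells. Ccn1, a matricellular protein of the CCN family, was at 357 CPM in Clu-positive and 215 CPM in Clu-zero cells, with medians of 296 and 156 CPM per cell. Ccn2, also of that family, was at 9.62 CPM in Clu-positive and 4.15 CPM in Clu-zero cells, and was counted after thinning in 26.0% and 12.3% of them. Amotl2, a scaffold protein that binds YAP, was at 26.7 CPM in Clu-positive and 16.2 CPM in Clu-zero cells.

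In the Clu-positive collagen cells the same genes stood elsewhere. Edn1 was at 387 CPM in Clu-positive Matrigel cells and 31.1 CPM in Clu-positive collagen cells, and Ccn1 at 357 and 15.6 CPM. Within the collagen culture, where 88 genes (0.85%) were higher in Clu-positive than in Clu-zero cells by 2-fold or more and 312 (3.01%) lower, Edn1 was at 31.1 CPM in Clu-positive and 34.0 CPM in Clu-zero cells, and Ccn1 at 15.6 and 21.0 CPM. Whether these differences differ between the cultures was not tested, for want of replicates.

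Promoter sequences from RefSeq (build GRCm38.p6, 250 bases before to 50 bases after the start of the gene) were searched on both strands for the TEAD motif CATTCC and the AP-1 motif TGANTCA, each of which was searched alone. The TEAD motif was in 14.6% and the AP-1 motif in 7.93% of all 27025 promoters. Of the 11 promoters found for the 13 YAP and TAZ targets, 6 (54.5%) held the TEAD motif and 1 the AP-1 motif, and of the 16 found for the 19 regenerative genes, 1 held the TEAD motif and 6 (37.5%) the AP-1 motif. Genes enter a list of YAP and TAZ targets because TEAD factors are known to act on many of them. The 4 sequences below were picked because they hold the TEAD motif, which capitals mark, read on either strand. Of the other promoters read singly, those of Cldn4 and Plaur held the AP-1 motif alone. Those of Atf3, Emp2, Ier3, Pthlh and Tnfrsf12a held neither. Anxa1 was the 1 regenerative gene with the TEAD motif (6.25% of the 16).
Edn1 (chr13:42301226-42301525, plus strand): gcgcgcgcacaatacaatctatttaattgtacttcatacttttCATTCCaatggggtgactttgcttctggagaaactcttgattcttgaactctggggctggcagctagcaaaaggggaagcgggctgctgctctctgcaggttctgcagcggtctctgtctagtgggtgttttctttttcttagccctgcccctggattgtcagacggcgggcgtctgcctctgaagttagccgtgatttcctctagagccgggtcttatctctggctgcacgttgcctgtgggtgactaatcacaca
Ccn1 (chr3:145649936-145650235, minus strand): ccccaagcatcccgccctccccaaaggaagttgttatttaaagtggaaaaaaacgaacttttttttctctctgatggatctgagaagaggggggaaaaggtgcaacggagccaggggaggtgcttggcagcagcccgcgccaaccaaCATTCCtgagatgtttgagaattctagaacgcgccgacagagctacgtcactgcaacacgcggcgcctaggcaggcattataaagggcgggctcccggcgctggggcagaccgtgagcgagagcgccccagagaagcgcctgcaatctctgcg
Amotl2 (chr9:102717554-102717853, plus strand): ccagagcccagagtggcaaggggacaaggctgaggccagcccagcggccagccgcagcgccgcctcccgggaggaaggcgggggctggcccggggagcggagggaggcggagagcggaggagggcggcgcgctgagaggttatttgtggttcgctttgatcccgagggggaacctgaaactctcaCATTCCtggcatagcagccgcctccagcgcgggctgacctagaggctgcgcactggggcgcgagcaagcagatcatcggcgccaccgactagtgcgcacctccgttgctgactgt
Anxa1 (chr19:20390622-20390921, minus strand): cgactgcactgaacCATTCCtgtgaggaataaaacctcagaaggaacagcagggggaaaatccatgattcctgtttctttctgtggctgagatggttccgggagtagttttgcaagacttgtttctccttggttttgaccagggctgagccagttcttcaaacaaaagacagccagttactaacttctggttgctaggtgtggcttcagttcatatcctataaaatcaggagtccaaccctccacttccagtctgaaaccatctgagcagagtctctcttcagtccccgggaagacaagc
The motif begins 207 bases before the start of Edn1, 103 before that of Ccn1, 65 before that of Amotl2 and 236 before that of Anxa1. A match of letters is a description of the sequence and shows no binding.

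Other genes shared by many Clu-positive cells included Cfi, which encodes complement factor I. Cfi was at 41.3 CPM in Clu-positive cells (interval 39.2 to 43.4) and 17.9 CPM in Clu-zero cells (17.4 to 18.4), a log2 ratio of 1.16. Its median per cell was 22.8 CPM in Clu-positive and 0 CPM in Clu-zero cells, and after thinning it was counted in 66.7% (59.5% to 73.3%) and 42.6% (39.9% to 45.4%) of them. Of the Matrigel cells with Cfi, 18.4% carried Clu, against 6.57% of those without it. Atf3, a stress-responsive transcription factor, was at 145 CPM in Clu-positive and 82.0 CPM in Clu-zero cells, with medians of 90.2 and 39.9 CPM. The other early-response factors Fos, Jun and Egr1 were close to equal, at 357, 435 and 458 CPM in Clu-positive cells and 326, 406 and 407 CPM in Clu-zero cells. Arhgap6, a GTPase-activating protein, was at 19.4 CPM in Clu-positive and 7.96 CPM in Clu-zero cells. The laminin chain Lamb2 was less widely counted, in 29.2% of Clu-positive and 13.1% of Clu-zero cells after thinning. It was at 8.56 CPM in Clu-positive and 3.21 CPM in Clu-zero cells, so it reached 5 CPM in Clu-positive cells alone and the filter fixed its direction. The laminin chain Lamb3 had a log2 ratio of 0.56.

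**Figure D4:**
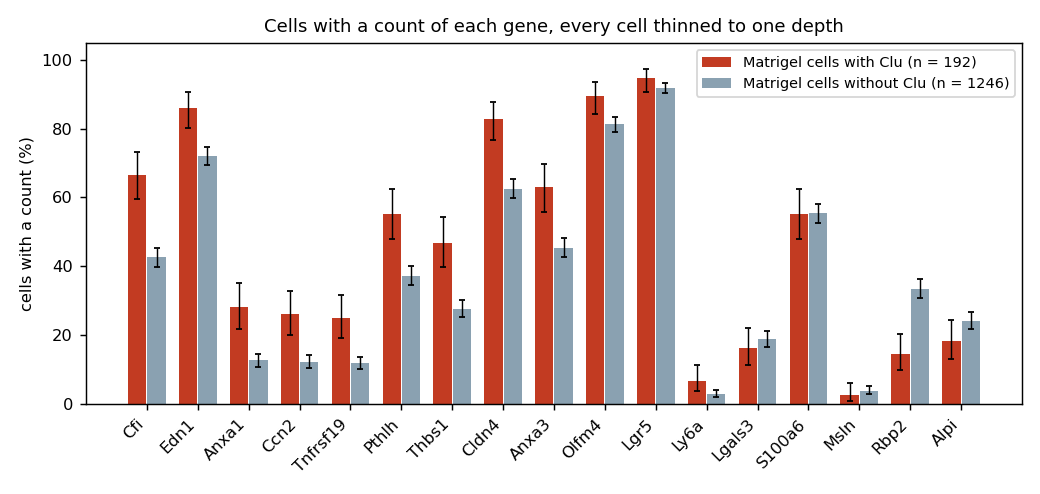
Share of cells with a count of each gene (bars, percent) after thinning every cell to 91971 counts, in Clu-positive Matrigel cells (left bar, 192 cells) and Clu-zero Matrigel cells (right bar, 1246 cells), with exact 95% binomial intervals that cover counting error only. Cfi, Edn1, Anxa1, Ccn2 and Cldn4 are counted in more Clu-positive cells, Rbp2 in fewer, and Lgals3, S100a6 and Msln in similar shares. Anxa1 and Ccn2 reached 5 CPM in Clu-positive cells alone.

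Crypt stem cell genes were at similar or somewhat higher levels in Clu-positive Matrigel cells. None of the 18 measured genes of that list was at least 2-fold lower, where 0.332% of all genes were, 1 was at least 2-fold higher, and the median log2 ratio was 0.21. Olfm4 was at 2006 CPM in Clu-positive cells (interval 1992 to 2020) and 1582 CPM in Clu-zero cells (1577 to 1587). Per cell it ran from 0 to 6865 CPM with a median of 1868 CPM in Clu-positive cells, and from 0 to 9810 CPM with a median of 1144 CPM in Clu-zero cells. Lgr5, the R-spondin receptor that defines crypt stem cells, was at 172 CPM in Clu-positive and 128 CPM in Clu-zero cells, and the Wnt feedback gene Axin2 at 199 and 158 CPM. The gene past 2-fold was Tnfrsf19, a Wnt-induced receptor known as Troy, at 6.74 CPM in Clu-positive and 2.44 CPM in Clu-zero cells. It reached 5 CPM in Clu-positive cells alone, so the filter fixed its direction.

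Olfm4 and Lgr5 were both counted in 178 of the 201 Clu-positive Matrigel cells (88.6%), against 76.3% of Clu-zero cells. In the collagen culture they were counted together in 0 of 225 Clu-positive cells, which allows a share of up to 1.33% of cells with counts that the table keeps. Olfm4 values under 12 are missing from it. Read the other way, Clu was carried by 14.3% of the Matrigel cells with Olfm4 (interval 12.4% to 16.3%) and 6.02% of those without it (3.72% to 9.15%). Cells with Olfm4 were somewhat deeper, with a median of 181220 counts against 165659 in those without. Clu was also found in 6 of 58 Matrigel cells with the enteroendocrine gene Chga (10.3%) and in 8.95% of those with the brush-border phosphatase Alpi.

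Against the Clu-positive collagen cells, Clu-positive Matrigel cells differed in many genes. Of 10635 genes, 1118 (10.5%) were higher in the Clu-positive Matrigel cells by 2-fold or more, and 873 (8.21%) were lower by as much. The collagen cells were shallower, with a median of 132144 counts. S100a6 was at 293 CPM in Clu-positive Matrigel cells and 6669 CPM in Clu-positive collagen cells, Lgals3 at 42.2 and 750 CPM, and Ly6a at 13.8 and 284 CPM. Across 9618 genes, the log2 ratios of Clu-positive over Clu-zero cells in the 2 cultures correlated weakly (Pearson's r 0.13, Spearman's rank correlation 0.07), given as a description because genes are not independent replicates.

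**Figure D5:**
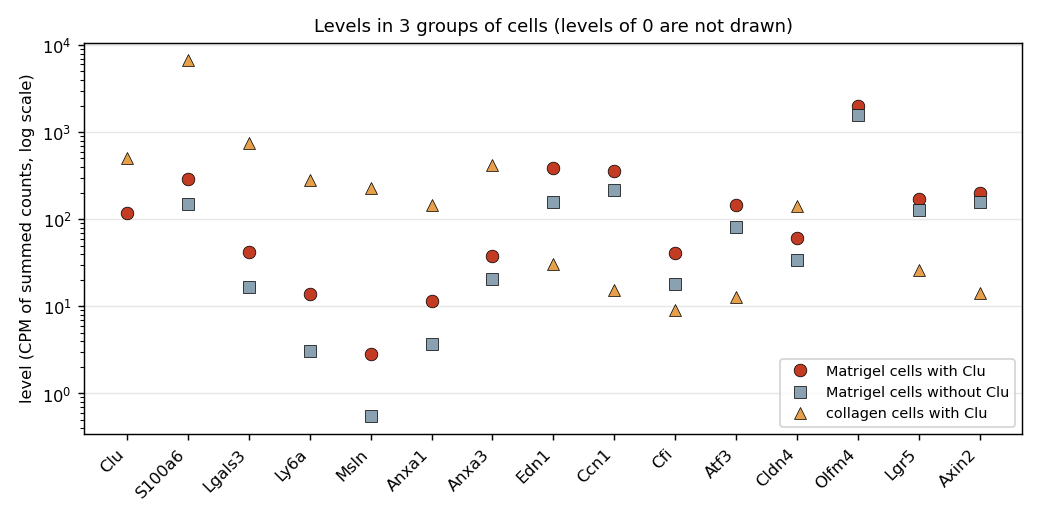
Levels (CPM of summed counts, log scale) of 15 genes in Clu-positive Matrigel cells (circles), Clu-zero Matrigel cells (squares) and Clu-positive collagen cells (triangles); levels of 0 are not drawn. For S100a6, Lgals3, Ly6a, Msln and Anxa1 both Matrigel groups lie well under the collagen cells, and for Edn1, Ccn1, Cfi, Atf3, Olfm4, Lgr5 and Axin2 above them.

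Hashtag counts were used to look for carry-over from collagen cells. The share of collagen hashtags among both hashtags of a cell had a median of 0.371% in Clu-positive cells (0 to 14.04%) and 0.531% in Clu-zero cells (0 to 25%). A share of at least 5% was found in 5 Clu-positive cells (2.49%, interval 0.813% to 5.71%), against 58 Clu-zero cells (4.15%, interval 3.17% to 5.33%). Clu was carried by 16.3% of the Matrigel cells with no collagen hashtag, 11.9% of those above 0 and under 1%, 12.9% of those from 1% to under 5%, and 7.94% of those at 5% or more. Clu was thus no more frequent in cells with more collagen hashtag, although only 63 cells stood in the last band. Free RNA taken up before capture was not tested.

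Within the Clu-positive cells the collagen hashtag share was higher at high Clu counts. Its median was 0.298% in the 73 cells with 10 to 14 counts, 0.384% in the 70 with 15 to 24, 0.492% in the 50 with 25 to 49 and 1.74% in the 8 with 50 or more. The summed regenerative level had medians of 1096, 1182, 1153 and 1706 CPM over the same 4 bands. In cells whose own hashtag made up at least 99%, Ly6a had a log2 ratio of 1.03, Anxa1 of 1.15, Lgals3 of 0.53 and Msln of -0.11, while Edn1 (1.17) and Cfi (1.08) stayed past 2-fold. With that hashtag filter, 2 regenerative genes were at least 2-fold higher, among 42 of all 10236 genes. These 2, Ly6a and Anxa1, had reached 5 CPM in Clu-positive cells alone, which fixed their direction. Edn1 was at 220 CPM in the 33 Clu-positive cells with no collagen hashtag, beside 158 CPM in all Clu-zero cells. In Clu-positive cells with more collagen hashtag, it was at 411 CPM (above 0 and under 1%), 419 CPM (1% to under 5%) and 530 CPM (5% or more, 5 cells).

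Differentiated lineages were unevenly represented. Of the 10 measured Paneth genes, 9 were at least 2-fold higher in Clu-positive cells, where 0.44% of all genes were, and 2 of the 9 reached 5 CPM there alone. Few cells carried counts of these genes that the table keeps, as values of Lyz1 under 30 and of Defa24 under 84 are missing. The antimicrobial enzyme Lyz1 was at 293 CPM in Clu-positive and 96.4 CPM in Clu-zero cells, counted in 16 Clu-positive cells (7.96%) and in 4.94% of Clu-zero cells, and 3 cells held 74.9% of its counts. The defensin Defa24 was also counted in 16 Clu-positive cells (7.96%), against 3.29% of Clu-zero cells, and 3 cells held 72.4% of its counts. Reads of the near-identical defensin genes can be split between copies, so single defensins are uncertain. Clu was carried by 25.8% of the Matrigel cells with Defa24 (interval 15.5% to 38.5%) and 12.04% of those without it (10.5% to 13.8%). Without the cells that carried Lyz1 or Defa24 (20 Clu-positive and 91 Clu-zero cells), 17 of the 10236 genes were at least 2-fold higher, beside 45 in all cells. Cfi and Edn1 were among the 17. Anxa1, Ly6a, Ccn2, Lamb2 and Tnfrsf19 were too, but had reached 5 CPM in Clu-positive cells alone, so the filter fixed their direction.

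Some enterocyte genes were lower. Of 15 measured enterocyte genes, 5 were at least 2-fold lower in Clu-positive cells, where 0.332% of all genes were, and 3 of the 5 reached 5 CPM in Clu-zero cells alone. The median log2 ratio was -0.54 over all 20 genes of the list and -0.19 over the 12 that reached 5 CPM in both groups. Fabp1, a fatty acid-binding protein, was at 99.3 CPM in Clu-positive and 502 CPM in Clu-zero cells, with medians of 5.19 and 6.97 CPM per cell. Single cells reached 4443 CPM in Clu-positive and 40294 CPM in Clu-zero cells. With the highest 5% of cells of both groups left out, Fabp1 was still at least 2-fold lower. Rbp2, a retinol-binding protein, was at 11.9 CPM in Clu-positive and 54.9 CPM in Clu-zero cells, and after thinning it was counted in 14.6% (9.91% to 20.4%) and 33.5% (30.8% to 36.2%) of them. Sucrase-isomaltase, Sis, was at 1.61 CPM in Clu-positive and 30.3 CPM in Clu-zero cells, and reached 5 CPM in Clu-zero cells alone. After thinning it was counted in 8.33% (4.84% to 13.2%) and 13.5% (11.6% to 15.5%) of them, and these intervals overlapped. With the highest 5% of cells left out, Sis was no longer at least 2-fold lower.

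The enteroendocrine list summed to 4.96 CPM in Clu-positive cells and 298 CPM in Clu-zero cells. Its 8 measured genes reached 5 CPM in Clu-zero cells alone, so the filter fixed their direction. Chgb, a granule protein, and Cck, a gut hormone, were listed at 0 in the 201 Clu-positive cells and counted in 0.93% and 0.43% of Clu-zero cells. The table keeps no Chgb value under 122 and no Cck value under 144, so these zeros set no limit on the share of cells that express them. Of the 9 measured goblet genes 1 was 2-fold higher and 1 2-fold lower, where 0.44% of all genes were higher and 0.332% lower. The lower one reached 5 CPM in Clu-zero cells alone, so the filter fixed its direction. The higher one, Guca2a, was at a log2 ratio of -1.92 without cells with Lyz1 or Defa24. No tuft gene reached 5 CPM.

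Lists of proliferation and stress genes held no gene past 2-fold. That count does not set them apart, as 0.44% of all genes were higher and 0.332% lower. None of 25 S-phase genes, 25 G2 and M-phase genes, 17 heat-shock and unfolded-protein genes, 15 p53 targets, 10 interferon-responsive genes and 7 NF-kB, chemokine and defence genes reached it. Within 2-fold, 24 of the 25 S-phase genes were higher in Clu-positive cells, with a median log2 ratio of 0.18 beside 0.01 over all genes. The G2 and M-phase list had 15 of 25 higher and a median of 0.03. Medians of the other lists, in the order named, were -0.03, 0.04, 0.04 and -0.07. The proliferation gene Mki67 was at 46.3 CPM in Clu-positive and 45.7 CPM in Clu-zero cells. The metallothioneins Mt1 and Mt2, which bind zinc, were at 3291 and 2257 CPM in Clu-positive cells and 4764 and 3599 CPM in Clu-zero cells.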

How the data were processed

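Per the labels, single cells were captured with BD Rhapsody beads and their cDNA amplified by TAS-Seq. The submitters' processing notes name cutadapt 4.1, STARsolo 2.7.10a, R 4.2.1 and build GRCm39. The authors deposited an expression matrix of expected counts (37172 genes, 2090 cells), in which 75.6% of the values above 0 were whole within 1e-06. The sources used here do not say whether copies of a molecule were merged, and unmerged copies would make intervals too narrow. The hashtags were deposited as whole-number counts of 11 sequences. In 49 genes, Clu, Ly6a, Lgals3, S100a6 and Tm4sf4 among them, low values were missing (smallest values 3.33 to 183), so a 0 there is not an absence. Cell names gave the culture. The 139 cells named as doublets were left out, and no doublet caller was run. The counts had been planned as whole numbers; sums of the expected counts were rounded instead.

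Levels have exact Poisson and shares exact Clopper-Pearson intervals at 95% (scipy 1.17.1, numpy 2.4.6, pandas 2.3.3; figures with matplotlib 3.10.9). Cells were thinned without replacement to the 10th percentile of depth. The calculation was tested on simulated data. Named genes were the 12 highest and 12 lowest log2 ratios at 20 CPM or more with at least 100 counts in at least 10% of cells, up to 4 genes at 10 CPM or more from each of 31 lists, and a set of marker genes. Anxa3, Arhgap6, Cldn4, Defa24, Egr1, Fos, Il1rn, Jun, Lamb2, Plaur, Tnfrsf12a and Tnfrsf19 fell outside it and were chosen after their values were seen. The members and lists were chosen with earlier results of these data known. List symbols with no row (5) are not analysed here.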

Additional observations from a re-analysis of the deposited data

Results flagged for a closer look

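The ratio of Clu-positive over Clu-zero cells pointed in opposite directions in the 2 cultures, at least 2-fold each way, for 5 of the named genes. These genes belong to Paneth, goblet or exocrine-type cells, and the difference between the cultures was not tested. Lyz1 had a log2 ratio of 1.60 in Matrigel and -4.67 in collagen, and the defensin Defa17 one of 2.68 and -9.50. Itln1, an intestinal lectin, had 1.96 in Matrigel and -1.70 in collagen. Guca2a, which encodes guanylin, had 1.28 and -3.89, and the colipase gene Clps 1.33 and -2.56. In Matrigel these sums rested on few cells: 3 cells held 74.9% of the Lyz1, 89.3% of the Defa17, 69.6% of the Itln1, 76.7% of the Guca2a and 82.4% of the Clps counts of Clu-positive cells. The collagen ratios rested on few cells too, with Lyz1 counted in 4 Clu-positive and 7 Clu-zero collagen cells. Values of Lyz1 under 30 and of Defa17 under 61.8 are missing in both cultures.

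Clu was also counted in cells left out of every comparison. Of the 139 cells named as doublets, 34 carried it (24.5%, exact interval 17.6% to 32.5%), between the 12.6% of Matrigel and the 67.0% of collagen cells.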

How the results depend on the processing

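No paired analysis was possible because the labels give no replicates of either culture. Of 16 planned and 4 added alternatives (these 4 chosen after seeing the data), the share of Clu-positive cells and their collagen hashtag share moved with the Clu threshold: 5.63% at 20 counts, 0.50% at 50 counts, with a hashtag median of 1.74% at 50 counts, and 0.111% in cells of at least 99% own hashtag. Matching depth deciles gives no value for the share.

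Genes at least 2-fold higher numbered 45 in all cells. They numbered 383 with a threshold of 50 counts (8 cells), 27 with 5 CPM added, 23 among genes reaching 20 CPM, 21 without secretory-type cells (at least 0.1% of counts in Paneth, goblet, enteroendocrine and tuft genes) and 17 without cells with Lyz1 or Defa24. Genes at least 2-fold lower numbered 34 in all cells. They numbered 723 with a threshold of 50 counts, 18 with the highest 5% of cells left out, 18 with 5 CPM added, 11 among genes reaching 20 CPM and 67 with no filter on low values. The count of crypt stem cell genes at least 2-fold lower was 0 and became 1 with a threshold of 50 counts.

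The 5 regenerative genes at least 2-fold higher became 7 with a Clu threshold of 20 counts, with doublet-named cells added and with no filter on low values, and 6 with a threshold of 50 counts, where 5 were at least 2-fold lower. They became 3 with cells weighted equally and without secretory-type cells. They became 2 with an own hashtag of at least 99%, with 5 CPM added, among genes reaching 20 CPM, with absent low values set to the smallest kept, without the highest cell by regenerative sum, without the highest 1% of cells, and without cells with Lyz1 or Defa24. They became 1 with the highest 5% of cells left out and without the 3 highest cells.

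Listed next are the named genes and list medians at least 2-fold higher or lower in all cells whose log2 ratios changed sign. Smaller ratios that changed sign are not listed. The 19 measured regenerative genes were all above 0 in all cells. Of them, 17 were above 0 without the highest cell by regenerative sum and 15 with the highest 5% left out. With the highest 5% of cells left out, Anxa10 was at -0.16, Itln1 at -0.14 and Lgals3 at -0.52. With a threshold of 50 counts, Ang4 was at -2.92, Anxa10 at -1.68, Clps at -0.19, Defa17 at -6.75, Defa2 at -1.30, Defa20 at -2.31, Defa22 at -0.42, Defa30 at -4.40, Defa32 at -1.28, Defa34 at -1.41, Defa36 at -1.69, Guca2a at -5.09, Itln1 at -2.04, Lgals3 at -1.74, Lyz1 at -1.58, Msln at -0.63 and Tm4sf4 at -1.41, and the Paneth median at -2.59. Msln was at -0.11 with an own hashtag of at least 99%, -0.22 without secretory-type cells and also without cells with Lyz1 or Defa24, -0.23 without the highest cell, -0.25 without the 3 highest and -0.26 without the highest 1%. Without the 3 highest cells Anxa10 was at -0.82, Lgals3 at -0.77 and Tm4sf4 at -0.40. Without secretory-type cells Defa2 was at -0.054, Defa30 at -0.26, Itln1 at -0.57 and the fibroblast median at 0.54 (1 gene, Vim, at -1.83 in all cells). Without cells with Lyz1 or Defa24, Clps was at -0.58, Defa2 at -0.024, Defa30 at -0.044, Guca2a at -1.92 and Itln1 at -0.67. For the alternatives that leave out cells the change follows from those cells, and for the others the cause was not tested. Edn1, Ccn1, Cfi, Atf3 and Anxa1 had no change of sign under any alternative run, although the filter fixed the direction of Anxa1 in all cells.

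The limits are the lack of replicates, the 201 cells, unknown merging of copies of a molecule, and the missing Clu values under 10 counts, which place such cells among the Clu-zero cells.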
